A study of Homo sapiens with 54 samples.

Results

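N_3 is Compound Kushen Injection (CKI) from which 3 named compounds, macrozamin (Mac), oxymatrine (Omt) and oxysophocarpine (Ospc), were taken out. CKI is an injectable plant extract that holds alkaloids such as matrine and sophoridine next to these compounds, and N_3 keeps all that was not removed. The libraries described here are the 3 from MDA-MB-231 cells exposed to N_3 at the equivalent of 2 mg/ml CKI for 48 h and the 3 from untreated cells of the same 48 h and the same batch, which makes 6 of the 54 libraries of the series. They were chosen by their treatment and time labels, so no measured value entered the choice.

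MDA-MB-231 is a line from a human breast cancer with a mesenchymal, strongly migrating habit that lacks the oestrogen and progesterone receptors, and it stands here for 1 line in culture only. Poly(A) RNA was sequenced, and each library holds the read count of 27978 gene rows. The other groups used below are whole CKI, N_2 (CKI without Omt and Ospc), OO (Omt and Ospc alone), MOO (Mac, Omt and Ospc alone) and the N_3 and untreated libraries at 24 h, with 3 libraries each from batch 1. The labels call the libraries of a group biological replicates but do not say whether they came from separate cultures or days, so the p-values measure the spread between these libraries.

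The 6 libraries held 21042031 to 24708584 counts. Levels below are CPM (counts relative to the library's total) after TMM scaling over the 36 libraries of batch 1, and differences are log2 fold changes of the edgeR quasi-likelihood fit. Of 8 genes taken as markers of this mesenchymal line, 4 were lower and 1 (EGFR) was higher under N_3. Their summed level was 4271 to 4366 CPM in untreated cells and 2712 to 3248 CPM under N_3. SPARC, which is among them, was near silent in these cells, at 0.644 to 1.31 CPM untreated. Markers of luminal breast epithelium summed to 777 to 890.1 CPM against 603 to 827 CPM, with ESR1 and PGR at 2 counts or fewer. KRT19 made up most of this sum, at 716 to 831 against 565 to 792 CPM. FOXA1 (5.62) and TFF1 (1.22) were higher, both from low levels, and GATA3 (-1.53) and CDH1 (-1.51) were lower. Fibroblast markers summed to 72.2 to 75.1 against 34.5 to 38.2 CPM, with DCN at 0. COL1A2 (-3.73) and PDGFRB (-0.77) were lower and COL1A1 (0.68) was higher. Endothelial markers summed to 7.96 to 8.99 against 9.43 to 12.5 CPM, and leukocyte markers to 17.2 to 21.3 against 6.88 to 9.25 CPM. The part of these marker shifts in the results below was not tested. Replicate 2 of N_3 stood apart from its group: 278 genes lay more than 2-fold from the mean of its partners, against 64 and 68 genes in the other N_3 libraries and 36 to 46 in the untreated ones. Without it, 10604 genes (71.7% of 14789) were called against untreated, and values without it are given beside the genes and lists said to depend on it.

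The groups of genes described below follow textbook biology. A dividing cell passes from G1, where D and E cyclins with their kinases release the E2F factors from the RB pocket proteins, through DNA replication to mitosis, and p21 (CDKN1A) is the inhibitor that holds these kinases in check. Stress routes each have their own transcription factor: HSF1 for misfolded cytosolic protein, NRF2 for electrophiles and oxidants, MTF1 for zinc and other metals, ATF4 and CHOP (DDIT3) for the integrated stress response, and XBP1 and ATF6 for the endoplasmic reticulum. NF-kappaB and AP-1 drive interleukins and chemokines such as IL1A, IL1B, IL6 and CXCL8. In bulk RNA, fewer cells in a state and less RNA of a gene per cell cannot be told apart.

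Most of the transcriptome differed between N_3 and untreated cells at 48 h. The control cells are labelled untreated and the series has no vehicle group. The mixture and its vehicle or handling therefore cannot be told apart. Of 14467 genes tested, 9354 (64.7%) passed an adjusted p of 0.05 in N_3 against untreated, 4686 of them higher (32.4%) and 4668 lower (32.3%), and 3675 also changed at least 2-fold. Among called genes that averaged 10 CPM or more and whose groups did not overlap, the 10 largest rises were in IL1A, HSPA6, HSPA7, ARC, IL24, IL1B, GADD45G, S100P, AKR1C1 and MT1X, and 8 of the 10 largest falls in genes of cell division or repair. Since 64.7% of all genes were called, a call alone sets no gene apart, and the sizes below carry more than the calls. Every list count against untreated below stands beside the same shares of all genes, 32.4% higher and 32.3% lower.

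IL1A, the gene of the interleukin 1 alpha alarmin, was read at 0.600, 0.690 and 0.523 CPM in the untreated libraries and at 136, 124 and 166 CPM under N_3, a log2 fold change of 7.89 (SE 0.19, adjusted p = 3.28e-10). IL1B, the other classical interleukin 1 gene, lay at 3.28, 3.87 and 4.53 CPM against 247, 229 and 271 CPM (6.02, SE 0.15). IL24, a cytokine of the interleukin 10 family, lay at 2.48, 3.27 and 3.05 CPM against 187, 168 and 241 CPM (6.11, SE 0.19). In all 3 genes each N_3 library was far above each untreated one, as the rule for naming genes required, and the groups did not overlap in 69.1% of all genes tested.

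HSPA6, an HSP70 gene that is nearly silent without heat or protein stress, went from 1.68, 1.70 and 2.05 CPM to 248, 209.9 and 238 CPM (7.02, SE 0.14, adjusted p = 2.66e-10). HSPA7, a near copy of HSPA6 long held to be a pseudogene, rose by 6.97 on the log2 scale, and its reads cannot be cleanly parted from those of HSPA6. AKR1C1, an aldo-keto reductase of the NRF2 set, went from 11.7, 13.2 and 11.8 CPM to 382, 411 and 402 CPM (5.04, SE 0.11), with AKR1C2 as a close paralog. MT1X, a zinc-binding metallothionein, went from 23.2, 24.0 and 24.1 CPM to 619, 411 and 859 CPM (4.75, SE 0.25, adjusted p = 4.46e-08).

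The remaining rises of this size were ARC (6.61), an immediate early gene best known from neurons, GADD45G (5.76), a stress and growth arrest gene, and S100P (5.45), a calcium-binding protein. GADD45G was the least even of them: the N_3 libraries read 69.7, 24.5 and 62.6 CPM, replicate 2 being the low one, against 0.874 to 1.04 CPM untreated (SE 0.41, adjusted p = 4.91e-07), and without that library the log2 fold change was 6.09. All of them lay above every untreated library, which the rule for naming genes required.

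The largest fall among these was in LGALS12, which encodes galectin-12, at 71.6, 83.7 and 78.8 CPM in untreated libraries and 0.575, 0.572 and 0.297 CPM under N_3 (-7.32, SE 0.18, adjusted p = 3.29e-10). KIF20A, a kinesin of the late mitotic spindle, fell from 99.7, 92.6 and 96.1 CPM to 1.68, 1.46 and 1.66 CPM (-5.88, SE 0.12, adjusted p = 2.66e-10). MKI67, the gene of the proliferation antigen Ki-67, fell from 292, 258 and 247 CPM to 6.32, 4.78 and 5.10 CPM (-5.59, SE 0.14, adjusted p = 4.16e-10). Of the 10 largest falls, 8 were genes of replication, mitosis, repair or their regulation: KIF20A, MKI67, SPC25 of the kinetochore (-6.04), FAM111B, a protease expressed in S phase (-5.96), E2F8, an E2F repressor (-5.54), MCM10 of the replication fork (-5.19), GINS2 of the replicative helicase (-5.08) and RAD51AP1 of recombination (-5.04). LGALS12 and PLEKHS1 (-5.12), a pleckstrin homology protein, were the other two.

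**Figure D1:**
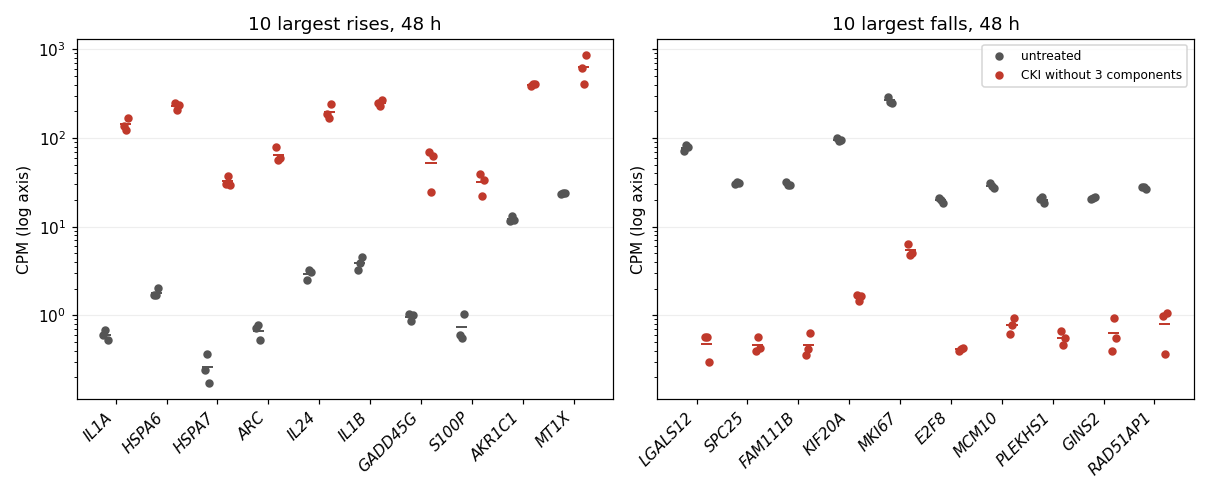
Level of the 10 genes with the largest rise and the 10 with the largest fall in each of the 3 untreated and 3 N_3 libraries at 48 h, in CPM on a log axis, with 1 point per library and a bar at the mean. IL1A sits between 0.523 and 0.690 CPM untreated and between 124 and 166 CPM under N_3, and LGALS12 at 71.6 to 83.7 CPM against 0.297 to 0.575 CPM; no gene shown has overlapping groups, which the naming rule required.

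Genes of cell division fell together. All 32 genes of the DNA replication list were lower under N_3, 31 of them at least 2-fold, with log2 fold changes from -5.08 to -0.78 and a median of -2.29. All 31 genes of the mitosis and cytokinesis list were lower and all at least 2-fold, from -5.88 to -1.07 with a median of -2.92. The median over all genes tested was 0.01, and 32.3% of all genes were called lower.

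Within replication, the helicase genes (11 of 11 lower) had a median of -2.88, with GINS2 lowest at -5.08, and the enzymes of nucleotide supply (6 of 6) had the lowest median of the roles, -3.22. TYMS, thymidylate synthase, fell from 89.8, 89.6 and 85.6 CPM to 2.92, 3.12 and 4.04 CPM (-4.69, SE 0.13, adjusted p = 6.73e-10), and RRM2, a subunit of ribonucleotide reductase, from 124, 127 and 119 CPM to 6.01, 4.47 and 4.89 CPM (-4.56, SE 0.13). The origin licensing genes held the smallest fall of the list (-0.78). The clamp and polymerase genes (11 of 11 lower) had a median of -1.86.

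Within mitosis, the 4 proliferation markers fell most by median (-4.60), followed by the cyclins and kinases (11 of 11 lower, median -3.41). PLK1, polo-like kinase 1, went from 145, 154 and 159.9 CPM to 5.00, 4.99 and 4.33 CPM (-4.98, SE 0.11, adjusted p = 3.28e-10). The phosphatases, the anaphase promoting complex, the kinesins and the cytokinesis genes were lower without exception, and each role had a median between -2.29 and -2.71.

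Homologous recombination and Fanconi repair genes were lower in 18 of 23, with none higher and a median of -2.11. The recombination genes were lower in 10 of 11 and the Fanconi genes in 5 of 7. BRIP1, a helicase that works with BRCA1, fell from 26.7, 21.9 and 22.2 CPM to 1.46, 0.624 and 0.595 CPM (-4.68, SE 0.25), and CLSPN, the claspin mediator of the replication checkpoint, fell by 4.40 on the log2 scale.

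The G1 list was mixed, with 5 of 22 genes higher, 14 lower and 3 not called. CDKN1A rose from 146, 153 and 157 CPM to 1037, 1144 and 1013 CPM (2.83, SE 0.11, adjusted p = 4.4e-09), and CDKN1C, p57, rose by 1.11, while CDKN2C fell by 3.34 on the log2 scale. CCND1, a D-type cyclin, fell from 806, 739.5 and 768 CPM to 239, 345 and 216 CPM (-1.51, SE 0.16, adjusted p = 9.11e-06), CCND2 rose by 2.64 from a low level, and CCNE2 fell by 4.42. CDKN2A and CDKN2B had no count in any of the 6 libraries. Among pocket proteins and E2Fs, 6 of 9 were lower and 2 higher, with E2F8 (-5.54) at the bottom.

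The upstream sequences of the cell cycle genes are shown because the genes fell together and mitotic genes are known to carry a short promoter element, the cell cycle genes homology region (CHR). In the 250 bases before the start, the letters TTTGAA (either strand) were found in 12 of 24 mitosis genes with a promoter in the RefSeq table (50%), in 8.26% of the 10885 tested genes with one, in 9.68% of those lower and in 7.26% of those higher under N_3. The following are the last 100 bases before the start on GRCh38.p14, 5′ to 3′ on the gene's strand, with TTTGAA in capitals, for MKI67 (chr10:128126424-128126523, minus strand), PLK1 (chr16:23678789-23678888, plus), CCNB2 (chr15:59105046-59105145, plus), BUB1B (chr15:40160969-40161068, plus), PRC1 (chr15:90994536-90994635, minus) and KIF23 (chr15:69414249-69414348, plus).
MKI67: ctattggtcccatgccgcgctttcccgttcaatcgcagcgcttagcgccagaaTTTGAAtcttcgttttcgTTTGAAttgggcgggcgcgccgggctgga
PLK1: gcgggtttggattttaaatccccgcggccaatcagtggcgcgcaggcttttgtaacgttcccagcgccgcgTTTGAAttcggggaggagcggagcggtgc
CCNB2: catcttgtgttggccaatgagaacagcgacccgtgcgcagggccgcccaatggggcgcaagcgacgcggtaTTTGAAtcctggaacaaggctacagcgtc
BUB1B: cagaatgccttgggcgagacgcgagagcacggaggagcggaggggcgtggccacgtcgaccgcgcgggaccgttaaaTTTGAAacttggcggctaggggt
PRC1: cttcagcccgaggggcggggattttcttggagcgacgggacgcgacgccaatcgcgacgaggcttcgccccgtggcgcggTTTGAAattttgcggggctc
KIF23: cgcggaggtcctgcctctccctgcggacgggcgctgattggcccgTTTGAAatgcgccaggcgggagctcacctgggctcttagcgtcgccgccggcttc

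MKI67 holds the letters at both 47 and 29 bases before its start, and PLK1 and CCNB2 hold them at 29 bases. CCNB2, cyclin B2, fell by 3.85 on the log2 scale, BUB1B, a spindle checkpoint kinase, by 2.81, PRC1, an anaphase spindle crosslinker, by 2.55 and KIF23, a cytokinesis kinesin, by 2.48. A match is a description of the letters, and no binding was measured.

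For the replication genes, the letters TTTCGCGC or TTTGGCGC, both forms of an E2F site that overlap where they face each other, were found on either strand in 5 of 28 promoters (17.9%) against 1.62% of all, 2.05% of the lower and 1.17% of the higher genes. MCM6, a subunit of the replicative helicase that fell from 92.9, 91.9 and 91.1 CPM to 12.4, 12.5 and 12.1 CPM (-2.88, SE 0.09, adjusted p = 1.29e-09), holds both forms, overlapping, at 2 places. Its last 160 bases before the start (chr2:135876444-135876603, minus strand, GRCh38.p14) are shown with these in capitals.
MCM6: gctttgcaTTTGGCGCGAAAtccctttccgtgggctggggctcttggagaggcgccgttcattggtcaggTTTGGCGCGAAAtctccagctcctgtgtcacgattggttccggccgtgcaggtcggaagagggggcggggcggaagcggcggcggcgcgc

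Heat shock genes divided by branch. Of 13 chaperone genes tested, 6 were higher, 1 lower and 6 not called, where 64.7% of all genes were called. The list thus did not stand apart by its calls. Its rises of at least 2-fold were all in the HSP70 system (4 of 6 higher). Without replicate 2 of N_3, 9 of 14 were higher and 1 lower, with 71.7% of all genes called. HSPA1A, the inducible HSP70, went from 419, 459.6 and 467 CPM to 4224, 4024 and 4040.1 CPM (3.21, SE 0.12, adjusted p = 4.06e-09), with its near identical neighbour HSPA1B at 3.17, and DNAJB1, their J-domain partner, rose by 1.06. Neither chaperonin gene was called, and HSPA6 above is not on this list. Within each group the 3 libraries differed little, and every N_3 library was above every untreated one for these 3 genes. In 69.1% of all genes tested the groups did not overlap either.

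Of 23 NRF2 antioxidant genes, 17 were higher, none lower and 6 not called, with a median of 1.11. HMOX1, haem oxygenase 1, went from 21.4, 25.9 and 24.7 CPM to 323, 347 and 357 CPM (3.86, SE 0.12, adjusted p = 1.04e-09). FTH1, the ferritin heavy chain, went from 1250.1, 1346 and 1286 CPM to 10572, 8806 and 12425 CPM (3.06, SE 0.16), and SLC7A11, the cystine importer, from 38.3, 30.2 and 29.1 CPM to 273, 204 and 213 CPM. Glutathione synthesis (4 of 4), the thioredoxin system (3 of 3) and haem and iron handling (3 of 3) were higher throughout, whereas NQO1, a quinone reductase often used as the marker of this pathway, had a log2 difference of 0.01 (SE 0.10, adjusted p = 0.956) and only 2 of 5 NADPH genes were called.

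The letters TGACNNNGC, the core of the antioxidant element, were in 4 of 16 promoters of these genes (25%) and in 12.2% of all. TXNRD1, thioredoxin reductase, which rose by 1.18 on the log2 scale, is shown with its match in capitals in the last 160 bases before the start (chr12:104215619-104215778, plus strand, GRCh38.p14).
TXNRD1: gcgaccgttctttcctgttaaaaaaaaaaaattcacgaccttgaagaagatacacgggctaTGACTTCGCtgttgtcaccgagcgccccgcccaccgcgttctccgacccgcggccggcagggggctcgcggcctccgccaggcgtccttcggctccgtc

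All 7 genes tested of the metallothionein and zinc list were higher and at least 2-fold, 5 of them metallothioneins with log2 fold changes of 2.72 to 4.75, beside the zinc exporter (2.65) and a regulator (1.38). MT2A, a metal-binding protein of the same family, went from 360.2, 406 and 398 CPM to 2706, 1216 and 3625 CPM, and MT1E from 76.9, 83.7 and 82.8 CPM to 628, 391 and 948 CPM (3.04). Replicate 2 was the lowest N_3 library and replicate 3 the highest for MT1X, MT1E and MT2A. All still lay above the untreated libraries, where 69.1% of all genes tested had groups without overlap. Without replicate 2 the log2 fold changes were 4.98, 3.30 and 3.05. Reads of the MT1 genes can be split among near identical copies.

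ATF4 and CHOP stress genes were higher in 25 of 29, lower in none, with a median of 1.74. GDF15, a secreted stress cytokine, went from 82.3, 93.2 and 89.4 CPM to 1556, 1329 and 1245 CPM (3.98, SE 0.13, adjusted p = 1.57e-09). The factors ATF3 (3.27) and DDIT3 (2.13), the feedback pseudokinase TRIB3 (2.61) and STC2 (2.91), a secreted glycoprotein, rose with it, as did all 5 tRNA charging enzymes. DDIT3 read 95.8, 68.5 and 124 CPM under N_3 against 22.0, 23.3 and 21.3 CPM untreated. DDIT4 was not called (0.16, adjusted p = 0.209).

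The letters TGATGNAA of the ATF4 element were in 3 of 20 promoters of this list (15%) and in 1.41% of all. ASNS, asparagine synthetase, which went from 2.28, 1.38 and 1.61 CPM to 8.36, 6.60 and 6.76 CPM (2.05, SE 0.21), is shown with the match in capitals in the last 100 bases before its start (chr7:97872409-97872508, minus strand, GRCh38.p14).
ASNS: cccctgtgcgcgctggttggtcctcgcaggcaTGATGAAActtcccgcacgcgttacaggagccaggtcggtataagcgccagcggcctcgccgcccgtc

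The chaperone branch of the unfolded protein response moved less: 16 of 23 genes were higher, 1 lower and 6 not called, with a median of 0.51. HSPA5 (BiP), the main chaperone of the endoplasmic reticulum, went from 1312, 1238 and 1249 CPM to 3744, 3752 and 3521 CPM (1.56, SE 0.11, adjusted p = 4.87e-07). ERN1 (IRE1), the sensor, rose by 2.56 and DNAJB9 by 1.68, and CALR, calreticulin, had a log2 difference of -0.03 (adjusted p = 0.83).

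Aryl hydrocarbon receptor genes were higher in 6 of 9, with none lower. CYP1A1, the classical target, went from 1.32, 1.20 and 1.05 CPM to 13.3, 17.4 and 14.1 CPM (3.66, SE 0.18, adjusted p = 2.59e-08), and the repressors AHRR (2.58) and TIPARP (2.18) and the enzyme CYP1B1 (1.12) rose too. The core letters GCGTG of the xenobiotic element are common and were in 3 of 6 of these promoters (50%) and in 45.2% of all. The last 100 bases before CYP1A1 (chr15:74725529-74725628, minus strand, GRCh38.p14) hold 1 match on the gene's strand.
CYP1A1: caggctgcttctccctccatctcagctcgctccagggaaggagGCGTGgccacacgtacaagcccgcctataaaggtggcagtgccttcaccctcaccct

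Of 30 cytokine and chemokine genes tested, 22 were higher, 5 lower and 3 not called, with a median of 1.07. Besides the interleukins above, CXCL8 (interleukin 8), a neutrophil attractant, went from 25.2, 26.7 and 25.9 CPM to 593, 457 and 601 CPM (4.43, SE 0.14, adjusted p = 1.25e-09). CSF2, which encodes GM-CSF, went from 3.48, 4.42 and 4.49 CPM to 53.9, 22.6 and 51.5 CPM (3.40, SE 0.30), and IL6 from 15.5, 14.8 and 16.6 CPM to 142, 93.4 and 170.1 CPM (3.14, SE 0.20). Replicate 2 was the lowest N_3 library for each, and without it the log2 fold changes were 4.54, 3.70 and 3.34. No group overlapped, as was so for 69.1% of all genes tested.

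By role, 8 of 9 interleukins and growth factors and 6 of 7 chemokines were higher, as were 5 of 7 NF-kappaB feedback genes, among them TNFAIP3 (A20), which went from 8.59, 8.61 and 9.06 CPM to 67.8, 62.7 and 60.8 CPM. The receptors and transducers were mixed, 3 of 7 higher and 2 lower. IL6R rose by 4.64 on the log2 scale from 0.440 to 0.523 CPM to 10.6 to 14.2 CPM, and SOCS3, an inhibitor of cytokine signalling, fell by 1.94.

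ERK output and immediate early genes were higher in 16 of 24 and lower in 3, with a median of 0.86. FOSB (3.25), DUSP5 (3.16), an ERK phosphatase, and IER3 (2.41) led. DUSP5 read 99.7, 96.0 and 97.2 CPM untreated and 806, 969 and 816 CPM under N_3, with no overlap, as in 69.1% of all genes tested. EGFR, a receptor upstream of ERK, rose by 1.91 from 119, 89.6 and 87.1 CPM to 375, 423 and 301 CPM, while EGR1 was not called (0.24, adjusted p = 0.144).

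Interferon-stimulated genes went the other way, with 1 of 27 higher, 14 lower and 12 not called. OAS3, an antiviral synthetase, fell from 34.2, 31.0 and 28.8 CPM to 11.9, 13.2 and 10.1 CPM (-1.40, SE 0.12, adjusted p = 2.52e-06), with IFIT1 (-1.05) and IFIT2 (-1.03) after it. Without replicate 2 of N_3, 22 of the list were called instead of 15, 20 lower and 2 higher, with 71.7% of all genes called.

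Of the genes of adhesion and shape, caveola genes fell most: 4 of 4 were lower. CAV1, the caveolin coat, went from 708, 692 and 665 CPM to 79.7, 89.6 and 90.0 CPM (-2.97, SE 0.11, adjusted p = 3.11e-09), and CAVIN2 fell by 3.31. THBS1, the matrix glycoprotein thrombospondin 1, fell from 1118, 1001 and 1017 CPM to 158, 217 and 131 CPM (-2.61, SE 0.17). The focal adhesion list as a whole was divided, 8 of 30 higher, 14 lower and 8 not called, with integrins at 4 higher and 3 lower of 10. Of all genes, 32.4% were higher and 32.3% lower.

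The actin, myosin and SRF list had 17 of 30 genes lower and 1 higher, against 32.3% and 32.4% of all genes. The actins were lower in 3 of 3, ACTG1 falling from 3759, 3982 and 4198 CPM to 1228, 1319.5 and 1268 CPM (-1.62, SE 0.11), with ACTB, which it resembles closely, at -1.27, and the myosins were lower in 4 of 5, with MYL9 at -1.85 and MYH10 at -1.67. TAGLN, an SRF target, fell by 1.68. YAP and TEAD genes were lower in 8 of 12 but by less than 2-fold. AXL, the largest fall of them, read 384, 700.0 and 356 CPM under N_3 against 866, 812 and 840.2 CPM untreated, replicate 2 lying apart, and its log2 fold change was -0.79, or -1.16 without that library.

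Matrix proteases and hyaluronan genes moved in both directions, 8 of 18 higher and 6 lower, against 32.4% and 32.3% of all genes. MMP1, the interstitial collagenase, went from 9.67, 8.88 and 8.89 CPM to 224, 202 and 151 CPM (4.41, SE 0.16, adjusted p = 2.8e-09). CEMIP, which degrades hyaluronan, fell from 424, 386 and 400.0 CPM to 39.3, 36.3 and 34.5 CPM (-3.44, SE 0.11). Of the hyaluronan genes 3 of 5 were lower and none higher, while 4 of 5 matrix metalloproteinases and 4 of 5 genes of the urokinase system were higher. The exception in the latter was PLAU, urokinase itself, which fell from 306, 311 and 309 CPM to 98.5, 79.4 and 96.6 CPM (-1.73, SE 0.11, adjusted p = 1.94e-07).

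TGF-beta, SMAD and EMT genes were divided, 10 of 25 higher and 12 lower, against 32.4% and 32.3% of all genes. ID2, an inhibitor of differentiation factors, rose by 4.42 (SE 0.35) from a low level, SNAI1, the EMT regulator Snail, rose from 3.72, 4.14 and 3.96 CPM to 34.0, 18.2 and 28.3 CPM (2.79), and BMP4, a ligand of the family, fell from 511, 552 and 560.0 CPM to 78.6, 102 and 72.0 CPM (-2.67, SE 0.14). The inhibitory SMADs parted, SMAD7 rising by 1.68 and SMAD6 falling by 1.96. CDH1, E-cadherin, fell by 1.51 and VIM, vimentin, by 0.61, and CDH2 was not called (0.05, adjusted p = 0.919).

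The study's list of migration related genes, collected from the literature, had 35 of 124 tested genes higher, 45 lower and 44 not called, against 64.7% called of all genes. Of its genes that averaged 1 CPM or more, the largest changes were these: the water channels AQP5 and AQP1 fell by 4.88 and 3.18 and WNT11, a Wnt ligand, rose by 2.71. AQP5 read 9.51, 10.6 and 12.2 CPM untreated and 0.221, 0.624 and 0.255 CPM under N_3. Of the study's 14 core genes, chosen with CKI results in these cells and thus no independent evidence of direction, 13 were tested, 7 were lower, 1 higher and 5 not called.

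Among the core genes that fell were CCND1 and CDH1 (both -1.51), AKT1 (-1.26), CTNNB1 (-0.74) and RB1 (-0.54), which encode a cyclin, a cadherin, a kinase of the PI3K route, beta-catenin and the retinoblastoma protein. PIK3CA, a PI3K catalytic subunit, was higher (0.31), and ESR1 was left out for low counts. AKT1 read 314, 329.8 and 352 CPM untreated and 121, 164 and 125 CPM under N_3, with no overlap, as in 69.1% of all genes tested. This count depended on 1 library: without replicate 2 of N_3, all 13 were called, 12 lower and 1 higher, while the share of all genes called went from 64.7% to 71.7%.

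Lipid genes separated by pathway. Fatty acid synthesis was lower in 5 of 7 genes with none higher, with FASN, fatty acid synthase, at -1.16 and SREBF1, its regulator, at -1.54. Cholesterol synthesis had 6 of 14 higher and 4 lower. Among all genes 32.4% were higher and 32.3% lower, so cholesterol synthesis did not stand apart by its counts. PPAR targets were higher in 5 of 6, among them ANGPTL4, a lipase inhibitor, from 2.24, 3.18 and 3.18 CPM to 46.6, 43.9 and 41.0 CPM (3.96, SE 0.15), PLIN2 (2.77), a lipid droplet coat, and PDK4 (1.98), while none of the 4 liver X receptor targets was higher.

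The remaining lists moved in both directions, where 32.4% of all genes were higher and 32.3% lower. Of the glycolysis and hypoxia genes, 8 of 28 were higher and 14 lower, with VEGFA (2.10) and ADM (1.57) up and CA9 (-1.53) down, all 3 being hypoxia markers. Of the apoptosis and p53 genes, 12 of 25 were higher and 4 lower, led by GADD45A (2.09), the death receptor TNFRSF10A (1.57) and BIK, a pro-apoptotic gene that read 3.36 to 3.48 CPM against 1.08 to 1.33 CPM, and 1 of 4 caspase genes was called. All 4 genes of the MYC network were higher, MYC itself at 0.89 and its antagonist MXD1 at 1.97, as were 5 of 7 autophagy genes, with the receptor SQSTM1 (p62) at 1.93 and GABARAPL1 at 1.83.

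The circadian list had 5 of 14 genes higher and 5 lower, with NR1D1 (REV-ERB alpha) at 2.37, PER3 at -1.58 and ARNTL (BMAL1) at 1.53. The efflux and uptake transporters had 3 of 9 higher and 3 lower, with the efflux pumps ABCC2 (1.64) and ABCG2 (1.00) up and the cation exporter SLC47A1 (-1.77) down. Among all genes 32.4% were higher and 32.3% lower, so neither list stood apart by its counts.

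**Figure D2:**
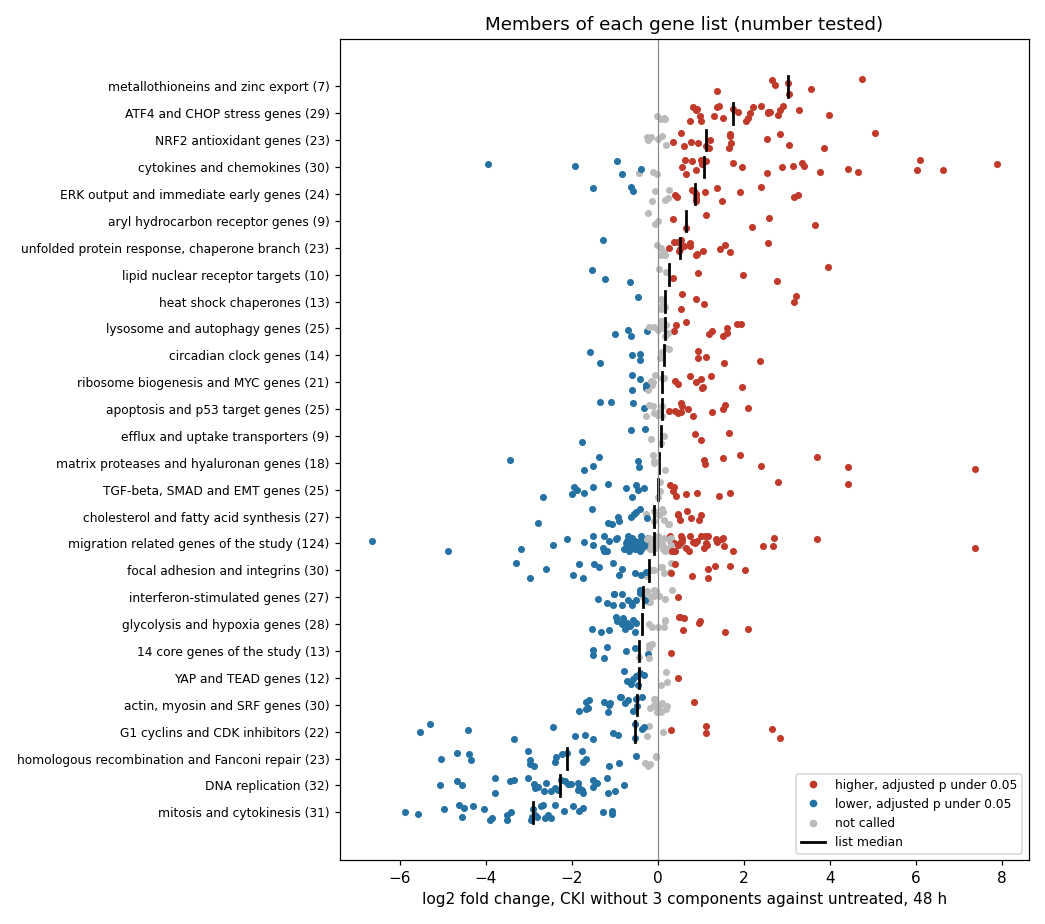
Log2 fold change of N_3 against untreated at 48 h for the tested members of each gene list, 1 point per gene. The 32 DNA replication and 31 mitosis genes all lie below 0, with medians of -2.29 and -2.92, the 7 metallothionein and zinc genes all lie above 0, and lists such as the 25 TGF-beta genes lie on both sides.

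The comparison of N_3 with whole CKI at 48 h sets the mixture without the 3 compounds beside the full mixture. The series has no library of CKI that was fractionated and recombined. Removal of the compounds and handling of the mixture therefore cannot be told apart here. Of 14606 genes, 8830 (60.5%) differed, 4372 higher (29.9%) and 4458 lower (30.5%) with N_3, and 2904 of them at least 2-fold. HSPA6 was read at 0.874, 1.00 and 0.627 CPM with CKI, against 209.9 to 248 CPM with N_3, a log2 difference of 8.12 (SE 0.16, adjusted p = 8.13e-09). ARC (5.79), S100P (6.02) and GADD45G (5.56) were also higher with N_3, and HSPA7 (7.12) again followed HSPA6.

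In the other direction, ITGA10, the integrin alpha 10 chain, was at 30.0, 37.2 and 40.0 CPM with CKI and at 0.929, 0.728 and 0.722 CPM with N_3 (-5.46, SE 0.18, adjusted p = 4.8e-08). The untreated libraries lay between at 9.55, 9.11 and 9.10 CPM, so CKI and N_3 lay on opposite sides of untreated. MCM10 (-5.01), DMBT1 (-4.86), a mucin-like secreted protein, MKI67 (-4.46) and SPC24 (-4.38), a kinetochore subunit, were lower with N_3. MKI67 read 111, 121 and 131 CPM with CKI.

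By list, 32 of 32 replication genes and 30 of 31 mitosis genes were lower with N_3 than with CKI, and none was higher. ATF4 and CHOP genes were higher in 28 of 29, chaperones of the heat shock list in 12 of 13, metallothionein and zinc genes in 7 of 7, cytokines in 23 of 29 and ribosome and MYC genes in 18 of 21, whereas glycolysis and hypoxia genes were lower in 20 of 28. CYP1A1 was lower with N_3, at 13.3, 17.4 and 14.1 CPM against 62.2, 60.0 and 60.5 CPM with CKI (-2.01, SE 0.11, adjusted p = 5.75e-07), and CYP1B1 likewise (-1.13). MMP1 lay at 209, 191 and 181 CPM with CKI, a log2 difference of 0.01 (SE 0.14, adjusted p = 0.969), and ANGPTL4 differed by -0.18 (SE 0.09, adjusted p = 0.105). Scaling by library size alone gave 8726 calls, 37.8% of them higher instead of 49.5%, with the median of all genes at -0.15, and 7754 of the 8830 calls were made in the same direction.

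By their names, N_3 and N_2 differ in macrozamin only, which N_2 keeps. They are separate mixtures, so macrozamin and the handling of each mixture cannot be told apart in this comparison. Of 14824 genes, 5806 (39.2%) differed between them at 48 h, 2912 higher (19.6%) and 2894 lower (19.5%) with N_3, and the 1201 that differed at least 2-fold were mostly lower with N_3 (989 against 212). The count fell to 3813 without replicate 3 of N_2 and rose to 7776 without replicate 2 of N_3. Scaling by library size alone gave 5619 calls with 31.2% of them higher, against 50.2%, and a median of all genes of -0.13.

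Among called genes that averaged 10 CPM or more and whose groups did not overlap, CXCL8 showed the largest rise of N_3 over N_2, at 593, 457 and 601 CPM against 67.0, 119 and 126 CPM (2.41, SE 0.22, adjusted p = 3.93e-05), followed by G0S2 (2.09), an inhibitor of lipolysis, POU2F2 (1.87), a POU transcription factor, CD22 (1.84), a sialic acid-binding lectin, and IL1A (1.78), which read 39.2, 43.9 and 42.4 CPM with N_2. C1QL1, a secreted C1q-like protein, was lowest relative to N_2, at 4.91, 7.17 and 4.55 CPM against 55.3, 39.1 and 52.6 CPM (-3.14, SE 0.19, adjusted p = 5.98e-06), followed by C11orf86 (-2.66), RAB17 (-2.58), a Rab GTPase, ALPP (-2.45), the placental alkaline phosphatase, and AQP3 (-2.44), a water and glycerol channel.

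Of the 23 genes of the unfolded protein response, 20 were higher with N_3 than with N_2 and none lower, HSPA5 reading 1446, 1568 and 1577 CPM with N_2 (1.27, SE 0.12). Cytokines were higher in 21 of 29, and mitosis genes were lower in 24 of 31 and replication genes in 19 of 32, with 3 of the latter higher. HMOX1 was lower with N_3, at 323, 347 and 357 CPM against 754, 641 and 620.3 CPM (-0.96, SE 0.11, adjusted p = 0.000132), and CYP1A1 also (-1.43). HSPA6 differed by 0.13 (SE 0.13, adjusted p = 0.454) and DDIT3 by 0.21 (SE 0.17, adjusted p = 0.37), and neither difference passed the test.

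Set side by side against the same untreated libraries in 1 fit of 15513 genes, N_2 had the most calls (11883), then N_3 (11030), OO (8970), CKI (8377) and MOO (7940), and the median absolute log2 fold change had a similar order, at 0.682, 0.561, 0.377, 0.343 and 0.329. These comparisons share their control libraries. The median over the mitosis genes was -2.93 with N_3, -2.50 with N_2, -1.09 with CKI, -1.08 with OO and -0.76 with MOO. Over the metallothionein and zinc genes it was 3.02 with N_3 and 3.34 with N_2, against 0.23 with CKI, 0.11 with OO and 0.60 with MOO.

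The unfolded protein response had another order, with a list median of 0.49 with N_3, 1.24 with OO, 1.12 with MOO, -0.08 with CKI and -0.45 with N_2. The cytokine list stood at 1.01 with N_3, 0.57 with OO, 0.50 with MOO, 0.45 with N_2 and 0.18 with CKI, and the ATF4 and CHOP list at 1.72 with N_3, 1.24 with OO, 1.08 with N_2, 1.04 with MOO and -0.19 with CKI. For HSPA5 the mean level was 3672 CPM with N_3, 7804 with OO, 6556 with MOO, 1531 with N_2 and 745 with CKI, against 1266 untreated.

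**Figure D3:**
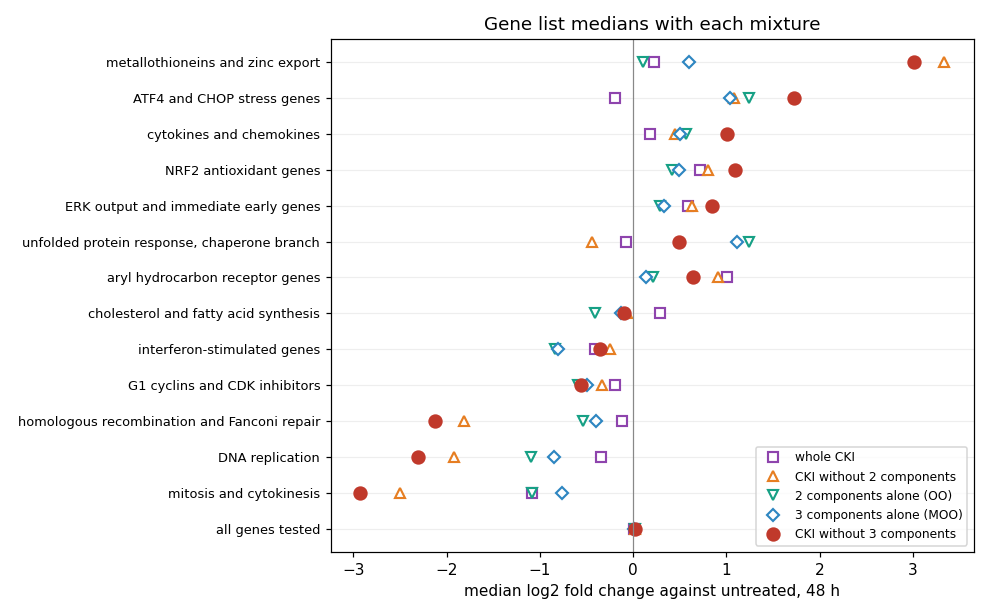
Median log2 fold change against untreated at 48 h of 14 gene lists in each of 5 mixtures, from 1 fit over 18 libraries. The mitosis list lies at -2.93 with N_3 and -2.50 with N_2 but at -1.09 with CKI, and the unfolded protein response list is highest with OO (1.24) and MOO (1.12).

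N_3 and MOO are complements: by their names, together they hold what CKI holds. Here too, handling of the parts cannot be told apart from their contents. The interaction asks whether the log2 changes of N_3 and MOO add up to that of CKI, as CKI minus N_3 minus MOO plus untreated, over 12 libraries. It passed the test in 9725 of 15004 genes (64.8%), 4961 above 0 (33.1%) and 4764 below (31.8%), and in 4755 it was at least 1 on the log2 scale in either direction.

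HSPA6 had an interaction of -11.25 (SE 0.18, adjusted p = 1.91e-16): it was at 232 CPM on average with N_3 and at 16.3, 15.8 and 15.4 CPM with MOO, both above the 1.81 CPM of untreated cells, and at 0.834 CPM with CKI. CXCL8 behaved alike, at 593, 457 and 601 CPM with N_3 and 175, 159.6 and 174 CPM with MOO, but at 21.7, 23.0 and 21.4 CPM with CKI and 25.2 to 26.7 CPM untreated (-7.37, SE 0.15). KRT34, a hair keratin, was at 25.9 to 37.3 CPM with N_3, 34.3 to 38.6 CPM with MOO, 2.36 to 2.66 CPM with CKI and 3.05 to 3.84 CPM untreated (-7.13). For HSPA6, CXCL8 and KRT34 the whole mixture thus lay below untreated and both of its parts above.

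Among called genes that averaged 10 CPM or more, LGALS12 had the largest positive interaction (8.86, SE 0.20, adjusted p = 1.56e-14), at 0.297 to 0.575 CPM with N_3, 4.96 to 5.80 CPM with MOO, 13.9 to 16.4 CPM with CKI and 71.6 to 83.7 CPM untreated. MCM10 (5.96) read 0.619, 0.780 and 0.935 CPM with N_3, 15.6, 14.8 and 15.1 CPM with MOO and 23.9, 24.6 and 28.6 CPM with CKI, where untreated cells read 27.3 to 31.5 CPM. FAM111B (6.99), ITGA10 (6.66) and SPC25 (6.29) were likewise lowest with N_3. CKI lay above both N_3 and MOO in each of these 5 genes.

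By list, the interaction was positive in 32 of 32 replication, 31 of 31 mitosis and 18 of 23 repair genes, with none negative, and negative in 28 of 29 ATF4 and CHOP genes, 22 of 23 unfolded protein response genes and 19 of 30 cytokines, with 0, 0 and 6 positive. DDIT3 illustrates the second kind, at 95.9 CPM on average with N_3, 164 with MOO, 18.4 with CKI and 22.2 untreated (-5.28, SE 0.21). Interferon-stimulated genes were positive in 22 of 27.

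**Figure D4:**
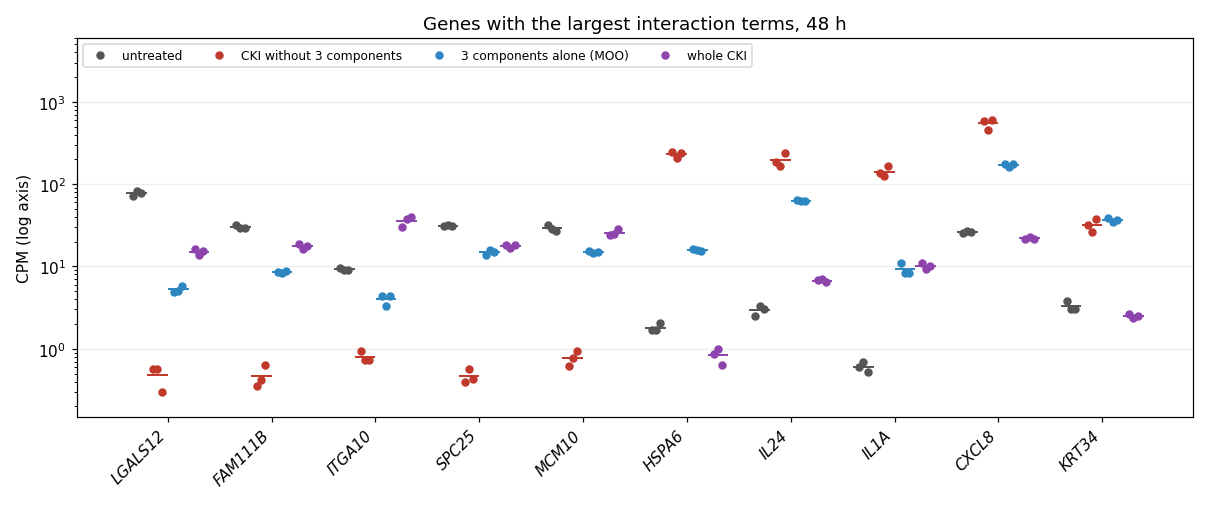
Level of the 10 genes with the largest interactions, 5 of each sign among called genes averaging 10 CPM or more, in the untreated, N_3, MOO and CKI libraries at 48 h, in CPM on a log axis, 3 libraries a group with a bar at the mean. HSPA6, CXCL8 and KRT34 are high with N_3 and MOO and low with CKI, and LGALS12, FAM111B, ITGA10, SPC25 and MCM10 are lowest with N_3 and higher with CKI than with MOO.

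The last comparison is between times. The N_3 effect against the untreated cells of the same time differed between 48 h and 24 h in 529 of 14953 genes (3.54%), 139 more positive (0.93%) and 390 more negative (2.61%) at 48 h. The share more positive was 26.3% of the calls, and 11.7% of 626 calls with library sizes alone. This count was not stable: it was 2205 without replicate 2 of N_3 at 24 h, which stood apart from its partners (1114 genes over 2-fold from their mean, against 273 and 136), 809 without replicate 2 of N_3 at 48 h, 251 and 316 without replicates 1 and 3 of N_3 at 48 h, and 165 to 213 without any 1 of the untreated libraries.

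SPC25 fell further with time: under N_3 it was at 3.52, 12.7 and 3.84 CPM at 24 h and at 0.398, 0.572 and 0.425 CPM at 48 h, while untreated cells held 38.5 to 42.3 and 30.7 to 31.7 CPM, and the difference of effects was -3.45 (SE 0.62, adjusted p = 0.0101). MCM10 read 4.54, 18.3 and 3.68 CPM at 24 h (-3.38, adjusted p = 0.0207), RAD51AP1 4.36, 11.0 and 5.04 CPM (-2.99), and KISS1, the kisspeptin gene, 3.99, 10.8 and 3.04 CPM (-2.72). In these 4 genes replicate 2 was the high library at 24 h, and without it the differences were -2.58, -2.26, -2.44 and -1.94, all still called. LGALS12 read 4.13, 0.926 and 3.20 CPM at 24 h (-2.86, or -3.26 without that library).

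RELB, an NF-kappaB subunit, lay below untreated at 24 h and above it at 48 h under N_3: at 24 h N_3 gave 43.2, 31.4 and 38.0 CPM against 51.9, 53.4 and 50.4 CPM untreated, and at 48 h 85.9, 119 and 89.8 CPM against 47.6, 50.9 and 50.3 CPM (difference 1.47, SE 0.19, adjusted p = 0.00184). BIRC3, an inhibitor of apoptosis and NF-kappaB target, lay likewise, with 13.9, 18.6 and 13.3 CPM at 24 h and 52.8, 42.9 and 47.7 CPM at 48 h, against 22.9 to 27.0 and 29.6 to 32.9 CPM untreated (1.35, adjusted p = 0.00375). The groups overlapped at neither time for these 2 genes. PLCXD1 (1.32), FOSB (1.49) and MMP1 (1.42) were above untreated at both times and further above it at 48 h, with adjusted p of 0.000502, 0.0204 and 0.0398. The calls of 4 genes were lost under some alternatives: with certain libraries left out the adjusted p reached 0.11 for MMP1, 0.0716 for KISS1, 0.0668 for MCM10 and 0.0652 for FOSB, with a replicate block it was 0.0578 for MMP1, and with all 36 libraries 0.364 for FOSB.

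By list, 10 of 31 mitosis genes had a more negative effect at 48 h and none a more positive one, 7 of 28 glycolysis and hypoxia genes a more negative one, and 6 of 31 cytokines a more positive one. HMOX1 (0.13, adjusted p = 0.926), HSPA6 (0.70, adjusted p = 0.67) and IL1A (1.98, adjusted p = 0.12) did not pass, whereas CDKN1A did (1.27, adjusted p = 0.00228). These list counts and tests include replicate 2 of N_3 at 24 h and are given with that library only. Its deviation from its partners pointed towards the untreated cells of 48 h (slope 0.42) and no less towards CKI at 48 h (0.47). The slope along the difference of untreated batch 2 from batch 1 was 0.68, and that towards N_2 at 48 h was -0.11. What set this library apart was not tested.

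**Figure D5:**
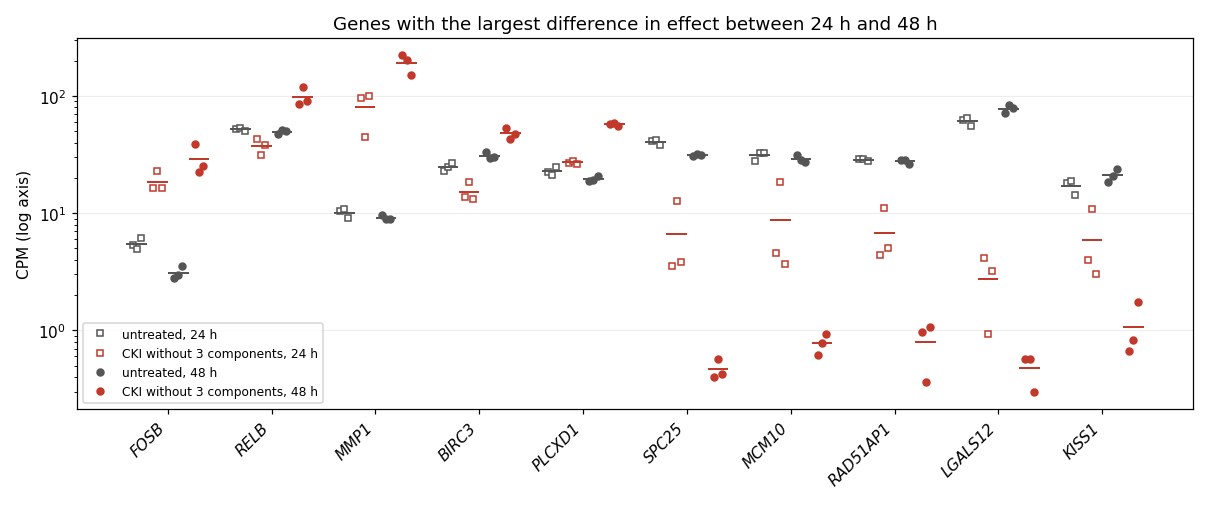
Level of the 10 genes whose N_3 effect differed most between times, 5 of each sign among called genes averaging 10 CPM or more, in untreated and N_3 libraries at 24 h and 48 h, in CPM on a log axis, 3 libraries a group with a bar at the mean. SPC25 under N_3 lies at 3.52 to 12.7 CPM at 24 h and 0.398 to 0.572 CPM at 48 h, and RELB under N_3 lies below untreated at 24 h and above it at 48 h.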

How the data were processed

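RNA-seq counts of 54 MDA-MB-231 libraries were used, 36 of them from batch 1. The deposited table holds the authors' raw counts per gene (27978 gene rows, 3798 with no count in any library). Per the submitters' processing notes, reads were checked with FastQC 0.11.4, trimmed with Trim Galore 0.3.7, aligned with STAR 2.5.3a to hg19 and counted with featureCounts of Subread 1.5.2, and edgeR 3.22.3 is named. Groups came from treatment, time and batch in the sample titles.

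Here edgeR 4.0.16 in R 4.3.3 (TMM scaling, filterByExpr, quasi-likelihood F test, Benjamini-Hochberg threshold of 0.05) was fitted to the 6 libraries of each pair of groups, or to 12 for the interaction and the time comparison. Standard errors are the log2 fold change over the square root of F and are approximate. The exact permutation test of 3 libraries against 3 cannot go below p = 0.1, so only the fit across all genes was used. Named genes are the 10 largest rises and falls past the threshold with a mean of at least 10 CPM and groups that do not overlap (5 each way elsewhere, with no overlap rule for the interaction and the time comparison), the 3 largest changes of each list with a mean of at least 1 CPM, and members that describe a role. Members and lists were chosen with earlier results of these data known. Certain genes that these rules pick are not reported here. Genes that share reads with close copies are uncertain. Promoters came from the RefSeq table of GRCh38.p14, which covered 10885 of 14467 genes tested. The scripts were tested on simulated data. Alternatives were another scaling, DESeq2 1.42.0, no filter, all 36 libraries, a replicate block, a 2-fold threshold and leaving out each library.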

Additional observations from a re-analysis of the deposited data

Results flagged for a closer look

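Differences between effects were tested for 2 contrasts. In the interaction of N_3 and MOO (CKI minus N_3 minus MOO plus untreated, log2 scale), 9725 genes passed, and among those that averaged 10 CPM or more the largest values were 8.86 for LGALS12, 6.99 for FAM111B, 6.66 for ITGA10, 6.29 for SPC25 and 5.96 for MCM10 on the positive side. On the negative side they were -11.25 for HSPA6, -9.32 for IL24, -7.75 for IL1A, -7.37 for CXCL8 and -7.13 for KRT34.

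Between the N_3 effects at 48 h and 24 h, 529 genes differed. Among called genes that averaged 10 CPM or more, the largest positive differences were 1.49 for FOSB, 1.47 for RELB, 1.42 for MMP1, 1.35 for BIRC3 and 1.32 for PLCXD1, and the largest negative ones -3.45 for SPC25, -3.38 for MCM10, -2.99 for RAD51AP1, -2.86 for LGALS12 and -2.72 for KISS1. Each of these passed the interaction test of the edgeR quasi-likelihood fit. Without replicate 2 of N_3 at 24 h, 2205 genes differed, all 10 named genes among them.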

How the results depend on the processing

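The 94 genes that the naming rule picked in N_3 against untreated, and the 10 each in N_3 against CKI, against N_2 and in the interaction, kept direction and an adjusted p under 0.05 in every refit (1128, 120, 120 and 180 values), though 4 of the 94 changed less than 2-fold; other list members were not followed through all refits; in the time comparison 153 values kept it and 27 lost the call, all of FOSB, KISS1, MCM10 or MMP1. Requiring a 2-fold change left 3675, 2904, 1201, 4755 and 262 genes in the 5 comparisons in the order of the report. Leaving out 1 library gave 8258 to 10604 genes against untreated, 7512 to 10202 against CKI, 3813 to 7776 against N_2, 9180 to 10514 for the interaction and 165 to 2205 for time. The time count was 1129 with DESeq2, 1166 with all 36 libraries and 274 with a replicate block; the share more positive was 26.3%, but 11.7% with library sizes alone and 16.0% with no filter, and the cause was not tested. Correlations of the deviations of same-numbered libraries exceeded 0.1 in 1 of 3, 0 of 3, 0 of 3, 3 of 18 and 3 of 18 cases in the 5 comparisons. They ranged from -0.41 to 0.29, which cannot decide whether such libraries were paired. The replicate block gave 9365, 8401, 4879 and 9683 genes in the other comparisons.

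List medians against untreated kept their sign under every alternative except in the protease, TGF-beta and cholesterol and fatty acid lists, whose medians lay near 0. With library sizes alone they were 1.05 (NRF2), 1.67 (ATF4 and CHOP), 0.20 (lipid receptors), -2.35 (replication), -0.60 (G1), -0.56 (actin), -0.39 (interferon), 0.084 (lysosome) and -0.49 (core genes). With no filter they were 1.08 (NRF2), 1.77 (ATF4 and CHOP), 0.33 (heat shock), 0.15 (lipid receptors), -2.32 (replication), -0.13 (proteases), -0.38 (interferon), 0.057 (clock) and -0.36 (core genes). With all 36 libraries they were 1.09 (NRF2), 0.34 (heat shock), -0.12 (proteases) and 0.069 (clock), and with the replicate block -0.38 (interferon). Leaving out 1 library gave 1.07 to 1.13 (NRF2), 1.76 to 1.81 (ATF4 and CHOP), 0.14 to 0.37 (heat shock), -2.31 to -2.26 (replication), -0.59 to -0.51 (G1), -2.19 to -1.97 (repair), -0.57 to -0.34 (actin), -0.16 to 0.030 (TGF-beta), 0.75 to 0.88 (ERK), -0.42 to -0.35 (interferon), 0.073 to 0.19 (apoptosis), 0.10 to 0.22 (lysosome), 0.074 to 0.17 (clock) and -0.59 to -0.26 (core genes). The main heat shock median was 0.17.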
